A study of Mus musculus with 6 samples.

Results

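The 44 genes described here run the cell division cycle: 20 act in DNA replication and the entry into S phase, 18 act in mitosis, and 6 are the D-type cyclins with the interphase cyclin-dependent kinases Cdk2, Cdk4 and Cdk6. They were taken by gene symbol from a deposited table of 38918 genes, and all 44 were found once each and passed the filter on low values (a mean of 1 FPKM or more over the libraries; FPKM is fragments scaled by transcript length and by library size). The RNA was that of entire mouse hearts taken at embryonic day 11.5, on a C57/BL6 background. The control embryos were Tie2 flox/wild-type, so they too carried a floxed allele of Tek, which encodes Tie2, a receptor for angiopoietins. Conditional knockouts were Nfatc1Cre:Tie2 flox/flox, in which Cre under Nfatc1 control, active in the endocardial lineage, removes Tie2. The sources used here do not state whether controls carried the Cre. The targeted lineage is only part of a whole heart. Each genotype had 18 hearts and 3 libraries. The series text describes the libraries of a genotype as portions of combined RNA. The p-values, SEs and intervals thus measure only the spread between libraries, which may be technical.

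In the dividing cell, D-type cyclins bind Cdk4 and Cdk6 and phosphorylate the retinoblastoma protein, which frees E2F factors to switch on replication genes, and cyclin E with Cdk2 carries the cell into S phase. Origins of replication are licensed by Cdc6 and Cdt1, which load the Mcm2 to Mcm7 helicase. Mitosis is driven by Cdk1 with the A and B cyclins, timed by the spindle checkpoint and ended when Cdc20 directs cyclin B to destruction. In the embryonic heart both the muscle cells and the lining cells divide, and the trabeculae divide less than the compact wall.

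Tek read 21.6 ± 4.57 FPKM across controls, against 3.21 ± 0.142 across conditional knockouts (SD, n = 3 each). Markers of heart muscle were abundant in every library, with a sum over 8 genes of 13900 to 21800 FPKM, and conditional knockout replicate 1 held the lowest sum while the other 5 libraries lay at 20200 or above. A sum over 8 endothelial and endocardial markers was 275 to 305 FPKM across controls, against 177 to 210 across conditional knockouts. Of these markers Pecam1, Npr3, Cdh5, Nfatc1, Tie1, Plvap and Kdr were each lower in every conditional knockout than in any control. Emcn was not, and its groups overlapped. It read 44.608, 48.109 and 44.013 FPKM across controls, against 40.809, 56.697 and 48.346 across conditional knockouts. Erythroid markers, those of another dividing cell type, summed to 9690 to 14600 FPKM across controls, against 8050 to 13700 across conditional knockouts over the 11 genes above 0 in all libraries. The embryonic globin genes Hbb-y and Hba-x were listed at 0 in all 3 controls, and at 17557, 23965 and 18968 FPKM and 11129, 18709 and 13568 FPKM in the conditional knockouts. With them the erythroid sum of the conditional knockouts was 36700 to 56400 FPKM, so its order between genotypes depends on these 2 genes. Rescaling the libraries without erythroid genes also called 0 of the 44 genes. Liver markers (sum over 4 genes) stood at 75.8, 20.0 and 23.5 FPKM in control replicates 1 to 3. In conditional knockout replicates 1 to 3 they stood at 3.95, 209 and 0.85 FPKM. Libraries described as portions of combined RNA thus differed in content, and how many hearts stand behind each is not clear. In whole hearts fewer cells of a type and less RNA per cell cannot be told apart, and the part of these cell types in the values below was not tested. Read depth is unknown, as the table gives no counts.

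No cell cycle gene passed the test between the genotypes. Of the 44 genes, limma called 0 higher and 0 lower at an adjusted p under 0.05, where it called 0.177% of the 12988 genes tested, 0.0539% higher and 0.123% lower. At an unadjusted p under 0.05 the count of these genes was also 0, against 6.68% of all genes. The smallest adjusted p among them was 0.769, for Ccnd3. The ranges of the genotypes were apart for 1 of the 44, Plk1, or 2.27%, where 13.4% of all genes tested had such separate groups. Between libraries of the same replicate number, 6 of the 44 genes were lower in the conditional knockout in all 3 pairs (Cdt1, E2f1, Plk1, Ccnd2, Ccnd3 and Cdk4), against 22.3% of all genes tested. Another 6 were higher in all 3 pairs (Mcm10, Mki67, Aurkb, Cenpe, Kif11 and Cdk2), against 15.2%. The labels do not say that a replicate number marks a litter, batch or day, so such pairs may be arbitrary. Log2 fold changes, conditional knockout minus control on the log2(FPKM + 1) scale, ran from -0.32 for Ccnd3 to 0.20 for Kif11. The median over the 44 was -0.02, with 17 above 0 and 27 below. Over all genes tested the median was -0.01, and 53.2% lay below 0.

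The precision of these values bounds what could have been missed between these libraries, and not between hearts. The intervals rest on the spread between libraries, and their folds are on the FPKM + 1 scale. The moderated SE was 0.12 at the median of the 44 genes and 0.13 over all genes tested. For 41 of the 44 the 95% interval of the difference, taken gene by gene, stayed within a 1.5-fold change in either direction, and for all 44 it stayed within 1 unit of log2. The same held within 1.5-fold for 75.3% of all genes tested. The 3 genes with a wider interval were Mki67 (-0.62 to 0.97), Cenpe (-0.38 to 0.64) and Ccnd3 (-0.66 to 0.02). Missing the threshold does not show that levels were equal.

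**Figure D1:**
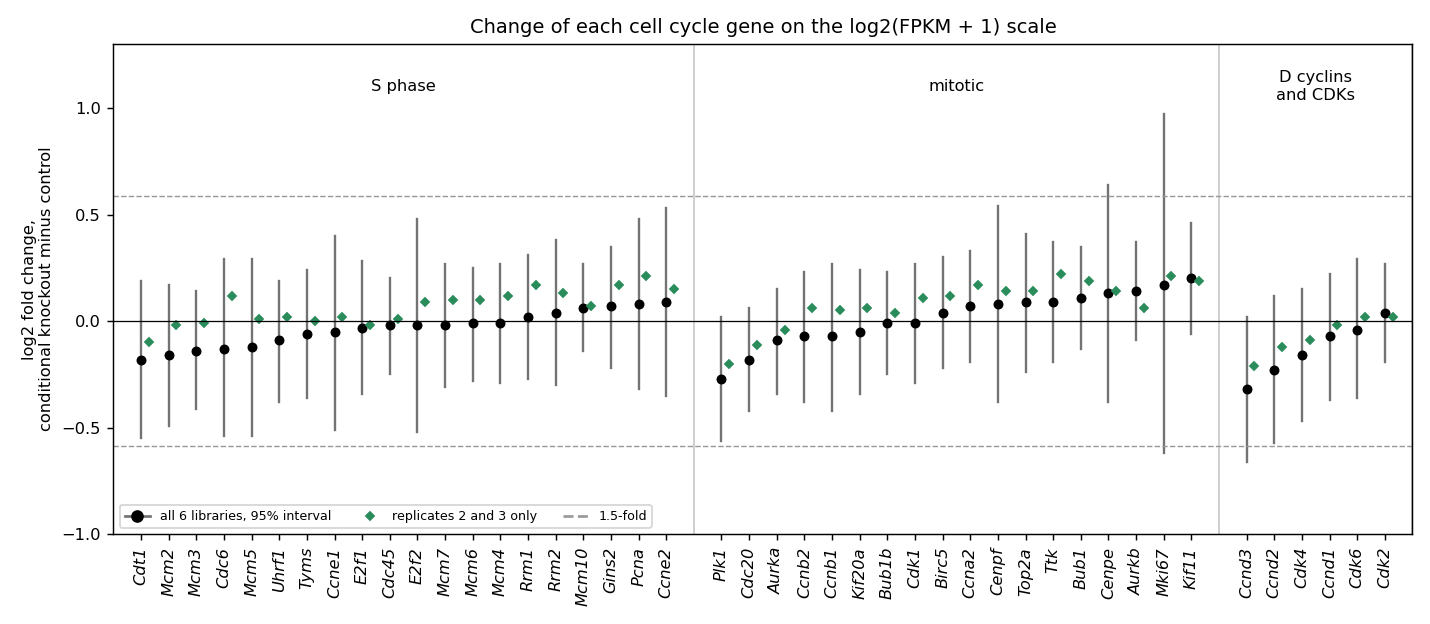
Log2 fold change (conditional knockout minus control) of each of the 44 genes on the vertical axis, grouped by role and ordered by value. Black points use all 6 libraries with 95% intervals from limma, green diamonds use replicates 2 and 3 only, and dashed lines mark 1.5-fold; all but 3 intervals stay between the dashed lines and none leaves 0 out.

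Among the S phase genes none of 20 passed, 14 lay below 0 and 6 above, and the median log2 fold change was -0.02, a sign that turned within replicates 2 and 3 (0.08) and without replicate 1 of the controls (0.015) or of the conditional knockouts (0.02), and with rescaling without erythroid and mitochondrial genes (0.036). Values ran from -0.18 for Cdt1 to 0.09 for Ccne2, and adjusted p values from 0.829 to 0.994.

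The helicase subunits Mcm2 to Mcm7, which form a ring of equal parts, differed in transcript level. Mcm5 was the lowest of the 6 in every library and Mcm6 or Mcm7 the highest, by 1.61 to 2.18 times. Mcm6 stood at 83.5, 71.93 and 69.53 FPKM in control replicates 1 to 3 and at 70.61, 80.16 and 71.98 FPKM in the conditional knockouts. Control replicate 1 was the highest and the groups overlapped, with a log2 fold change of -0.01 ± 0.11 (SE). Mcm5 read 52.01, 39.9 and 31.94 FPKM across controls, against 39.74, 38.37 and 33.61 across conditional knockouts, so that the controls spanned the whole range of the conditional knockouts. Its log2 fold change was -0.12 ± 0.18 (SE). Mcm2 read 68.69, 58.28 and 48.64 FPKM across controls, against 50.52, 56.19 and 48.85 across conditional knockouts, overlapping groups. Mcm2 and Mcm3 had the most negative values of the ring, -0.16 ± 0.14 and -0.14 ± 0.12 (SE). Without control replicate 1 the value of Mcm2 was -0.04, and without control replicate 3 it was -0.28. Within replicates 2 and 3 those of Mcm2 and Mcm3 were -0.02 and -0.01. Mcm4 and Mcm7 were at -0.01 and -0.02. Exons of Mcm7 overlap those of Cops6 and Ap4m1 on the other strand, and no strand setting is stated in the sources, so reads of such pairs cannot be told apart. In all, 11 of the 44 genes overlap a protein-coding gene on the other strand in this way, among them Ccne2, Cdc45, Gins2, Ccna2, Cdc20, Kif20a and 4 of the D cyclin and kinase group (Ccnd1, Ccnd3, Cdk2, Cdk4).

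Loading and firing factors were less abundant. Cdt1, which brings the helicase to origins, read 24.98, 22.19 and 16.91 FPKM across controls, against 19.63, 20.09 and 16.09 across conditional knockouts. Its log2 fold change was -0.18 ± 0.16 (SE), and the groups overlapped. It was the lowest of the S phase group with all 6 libraries, but was -0.06 without control replicate 1, where Ccne1 was lowest at -0.15, and -0.33 without control replicate 3. Cdc6, its partner, was highest in control replicate 1 at 19.43 FPKM, the remaining 5 libraries lying between 12.38 and 17.01 FPKM, and its value moved from -0.13 to 0.12 within replicates 2 and 3. Cdc45 and Gins2, which join the ring to make the active helicase, were at 18.57 ± 1.12 and 21.4 ± 1.84 FPKM across controls, against 18.24 ± 1.04 and 22.5 ± 2.7 across conditional knockouts (SD, n = 3 each). Mcm10, a later helper of the helicase, and Cdc45 had the smallest SE of the group, both 0.09. Mcm10 was at 10.03 ± 0.375 and 10.52 ± 0.454 FPKM (SD, n = 3 each), a log2 fold change of 0.06.

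The most abundant S phase genes serve the fork and its nucleotides. Pcna, the sliding clamp of the polymerases, read 172.4, 121.0 and 116.8 FPKM across controls, against 153.9, 148.1 and 127.5 across conditional knockouts. Both replicate 1 libraries were the highest of their group and the groups overlapped (0.08 ± 0.17, SE). The difference was 0.26 without control replicate 1 and -0.02 without control replicate 3. Rrm2, the regulated subunit of ribonucleotide reductase, read 117.9, 131.9 and 130.9 FPKM across controls, against 106.3, 144.4 and 143.9 across conditional knockouts. Here both replicate 1 libraries were the lowest, and the log2 fold change was 0.04 ± 0.14 (SE). Its partner Rrm1, the large subunit, read 92.8, 74.53 and 71.68 FPKM across controls, against 76.76, 83.8 and 80.72 across conditional knockouts, at 0.02 ± 0.12 (SE). Rrm2 exceeded Rrm1 in every library, by 1.27 to 1.83 times. Tyms, the thymidylate synthase, and Uhrf1, which reads hemimethylated DNA behind the fork, were at -0.06 and -0.09. Of these genes Pcna has processed copies named in the table, Pcna-ps1 and Pcna-ps2, at 0.139 FPKM or less. Among the other groups the table also names Ccnb2-ps, at a mean of 1.34 FPKM, and Ccnd3-ps, at 0.0201 FPKM.

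The S phase regulators differed by less than their SE. E2f1, an activating E2F factor, read 12.82 ± 1.77 FPKM across controls, against 12.53 ± 1.61 across conditional knockouts (SD, n = 3 each), and E2f2 read 7.066 ± 2.13 and 6.872 ± 1.45 FPKM. E2f1 exceeded E2f2 in all 6 libraries, by 1.34 to 2.62 times. The E cyclins were near each other in level, with Ccne2 above Ccne1 in 5 of 6 libraries. Ccne1 read 25.94, 34.84 and 29.36 FPKM across controls, against 22.45, 37.57 and 28.03 across conditional knockouts, with the lowest library of each group being replicate 1. Ccne2 read 27.29, 36.09 and 34.75 FPKM across controls, against 26.76, 36.24 and 42.97 across conditional knockouts, again lowest in replicate 1. Their log2 fold changes were -0.05 ± 0.20 and 0.09 ± 0.19 (SE).

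**Figure D2:**
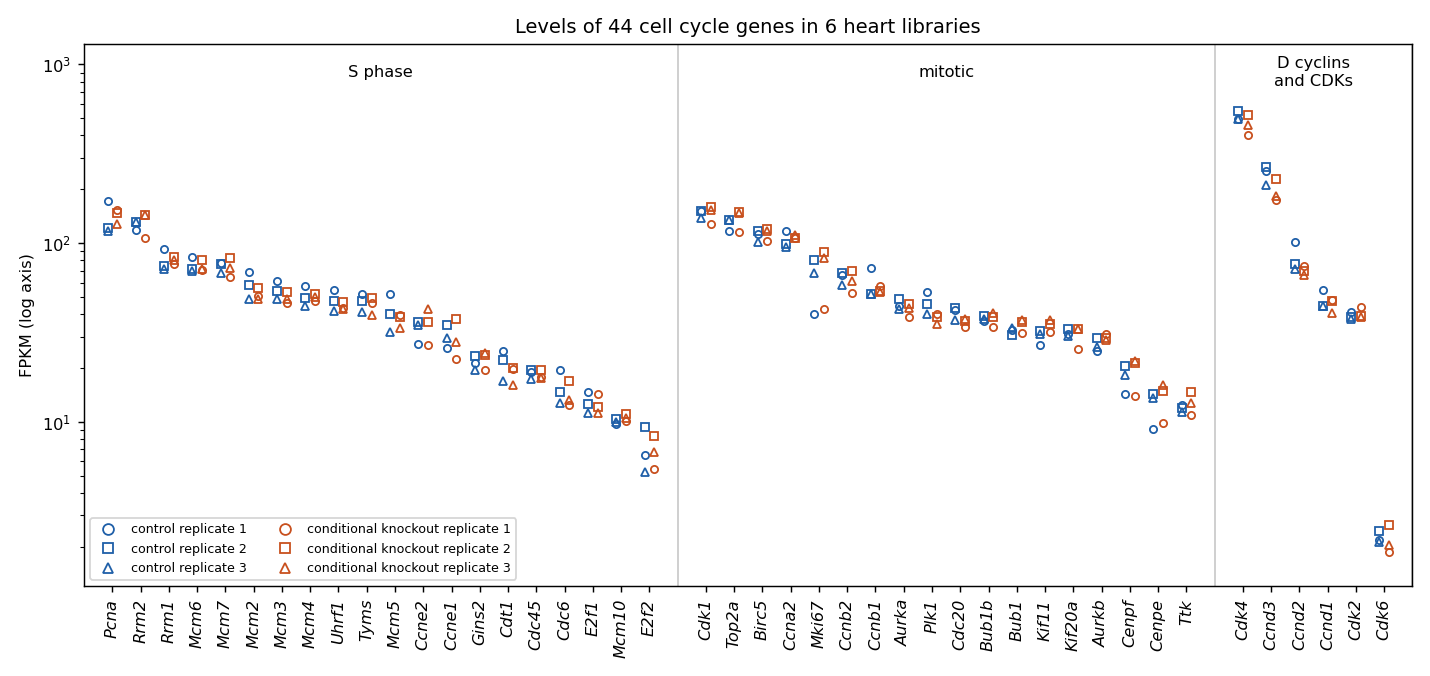
FPKM (log axis) of each of the 44 genes in each of the 6 libraries, with controls in blue, conditional knockouts in orange and the marker shape giving the replicate number. Genes are ordered by mean within a role; Cdk4 stands highest near 487 FPKM and Cdk6 lowest near 2.23 FPKM, and only for Plk1 do the colours not overlap.

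Across the S phase group, levels ranged from 6.97 FPKM for E2f2 to 139.9 FPKM for Pcna as means of 6 libraries, with a median of 42.6 FPKM against 10.7 FPKM over all genes tested. Of the 19 pairs of neighbours in that order, 3 had ranges that did not overlap over the libraries: Rrm2 above Rrm1, E2f1 above Mcm10, and Mcm10 above E2f2. FPKM is scaled by transcript length, which allows only a rough comparison between genes. A shift with length remained in the replicate 1 libraries, as given below. Reads of exons that overlap another gene cannot be told apart, so orders and ratios between genes are approximate.

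Mitotic genes also had none of 18 past the threshold, with 10 above 0, 8 below and a median log2 fold change of 0.05, which was -0.01 without control replicate 1 and also without conditional knockout replicate 2 or 3. Values ran from -0.27 for Plk1 to 0.20 for Kif11. The group spanned 12.4 FPKM for Ttk to 147 FPKM for Cdk1, and 3 of 17 neighbouring pairs did not overlap: Ccna2 above Mki67, Ccnb1 above Aurka, and Aurkb above Cenpf.

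Plk1, a kinase that acts at centrosomes, kinetochores and the midzone, was the only gene of the 44 with separate groups. This protein-coding gene spans 122159439 to 122169873 of chromosome 7 (GRCm38). The controls stood at 53.03, 45.41 and 40.11 FPKM and the conditional knockouts at 39.91, 38.46 and 35.41 FPKM. The lowest control and the highest conditional knockout were 40.11 and 39.91 FPKM, so the gap was far smaller than the spread within either group. The log2 fold change was -0.27 ± 0.12 (SE, adjusted p = 0.772, 95% interval -0.56 to 0.02), and it stayed between -0.36 and -0.17 over the 17 alternatives, the latter without control replicate 1. Separate groups with the conditional knockout lower were found for 8.17% of all genes tested.

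The kinase and cyclins that start mitosis overlapped between groups. Cdk1 read 151.8, 151.0 and 138.5 FPKM across controls, against 128.1, 158.9 and 152.4 across conditional knockouts, with replicate 1 the lowest conditional knockout, and had a log2 fold change of -0.01 ± 0.12 (SE). Its partner Ccna2, cyclin A2, was at 103.4 ± 11.7 and 108.2 ± 2.07 FPKM (SD, n = 3 each). Ccnb1 was at 58.63 ± 11.8 and 54.95 ± 2.13 FPKM and Ccnb2 at 64.24 ± 5.19 and 61.25 ± 8.62 FPKM. The order of the B cyclins depended on the library: Ccnb1 exceeded Ccnb2 in both replicate 1 libraries, by 1.09 times each, and was below it in the other 4. Exons of Ccna2 overlap those of Exosc9 on the other strand.

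For genes of chromosome structure and of the proliferating state, libraries of either genotype overlapped. Mki67, the gene of the Ki-67 antigen that coats mitotic chromosomes and is widely used to mark dividing cells, lies on chromosome 7 from 135689784 to 135716361. It read 40.07, 80.73 and 67.8 FPKM across controls, against 42.95, 89.0 and 82.73 across conditional knockouts. Both replicate 1 libraries lay far under the other 4. The log2 fold change was 0.17 ± 0.34 (SE), with the largest SE of the 44 genes, and without 1 library it ranged from -0.12 to 0.50. Within replicates 2 and 3 it was 0.21 ± 0.11 (SE). Top2a, the topoisomerase that untangles sister chromatids, read 116.4, 133.8 and 135.4 FPKM across controls, against 114.8, 149.5 and 147.2 across conditional knockouts, with replicate 1 again the lowest of each group (0.09 ± 0.14, SE). Birc5, the survivin subunit of the chromosomal passenger complex, read 112.4, 116.4 and 101.8 FPKM across controls, against 102.4, 120.3 and 117.3 across conditional knockouts (0.04 ± 0.11, SE).

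The long kinetochore genes showed the same low replicate 1 libraries. Cenpe, a kinesin of the kinetochore, read 9.123, 14.27 and 13.5 FPKM across controls, against 9.863, 14.79 and 16.07 across conditional knockouts. Cenpf, a large kinetochore protein gene, read 14.38, 20.51 and 18.35 FPKM across controls, against 13.96, 21.23 and 21.79 across conditional knockouts. For both, replicate 1 lay under every other library of either group. Kif11, the motor that pushes spindle poles apart, read 27.04, 32.37 and 30.97 FPKM across controls, against 31.86, 35.27 and 37.27 across conditional knockouts. It had the highest value of the 44 genes, 0.20 ± 0.11 (SE, adjusted p = 0.789), and its groups overlapped by 1 conditional knockout library that lay under the highest control. Without control replicate 1 it was 0.13. Kif20a, a motor of the late spindle, was at -0.05 ± 0.12 (SE).

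Among the checkpoint and exit genes, Bub1b stood at 37.81 ± 1.24 and 37.68 ± 3.4 FPKM (SD, n = 3 each), a log2 fold change of -0.01 ± 0.10 (SE), and Bub1 and Ttk, checkpoint kinases, were at 0.11 ± 0.10 and 0.09 ± 0.12 (SE). Cdc20, the activator of the anaphase-promoting complex, read 42.41, 43.37 and 37.19 FPKM across controls, against 33.88, 36.7 and 37.73 across conditional knockouts. The lowest control lay under the highest conditional knockout, and its value was -0.18 ± 0.10 (SE, adjusted p = 0.804). The Aurora kinases lay on either side of 0, Aurka at -0.09 ± 0.11 and Aurkb at 0.14 ± 0.10 (SE). Aurka exceeded Aurkb in every library, by 1.64 to 1.78 times in controls and 1.25 to 1.54 times in conditional knockouts. Neither gene passed (adjusted p = 0.872 and 0.815), and this ratio, 1 of several looked at, was not tested.

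Promoters of replication and mitotic genes are known to be read by different factors, E2F on the former and the MuvB complexes, with NF-Y at CCAAT boxes, on the latter. RefSeq windows of 300 bases (250 before the gene start, build GRCm38.p6) were held for 36 of the 44 genes, as 40 windows, and were searched on both strands. In 35 of the 40 windows, bases 21 to 40 after this start lay in a GENCODE transcript of the gene. Of the E2F words, TTCCCGC was searched along with TTGGCGC, as well as TTGCCGC, together with TTCGCGC; some of these can overlap on opposite strands. A gene counted when any of its windows held a word. An E2F word was found in 10 of 17 S phase genes, 3 of 15 mitotic genes, 1 of 4 of the D cyclin and kinase group and 10.9% of all 27025 genes in the set. The word TTTGAA of the cell cycle homology region (CHR) was found in 11 of 15 mitotic genes, 3 of 17 S phase genes, 0 of the 4 and 20.2% of all. The word CCAAT was found in 14 of 15 mitotic genes, 12 of 17 S phase genes, 2 of the 4 and 41.1% of all. All 11 mitotic genes and all 3 S phase genes with TTTGAA also held CCAAT, a pair that 8.97% of all genes had. With CCAAT in 14 of 15 mitotic genes, little room was left for another outcome among them. A match is a description of the letters and not a bound site. The 150 bases before the start are shown for an S phase gene with E2F words, for mitotic genes with CHR and CCAAT words, for Plk1, whose groups were separate, and for Cdk4, the most abundant of the 44, whose window held none of the words. They are written on the strand of the gene with the words in capitals.
Mcm6 (chr1:128359706-128359855, minus strand): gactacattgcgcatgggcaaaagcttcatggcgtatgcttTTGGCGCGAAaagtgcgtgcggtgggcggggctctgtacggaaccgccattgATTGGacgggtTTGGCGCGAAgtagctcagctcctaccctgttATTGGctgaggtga
Cdk1 (chr10:69352913-69353062, minus strand): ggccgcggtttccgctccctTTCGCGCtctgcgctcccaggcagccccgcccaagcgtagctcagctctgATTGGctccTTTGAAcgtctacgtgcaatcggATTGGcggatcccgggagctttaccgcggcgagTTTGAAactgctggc
Top2a (chr11:99024190-99024339, minus strand): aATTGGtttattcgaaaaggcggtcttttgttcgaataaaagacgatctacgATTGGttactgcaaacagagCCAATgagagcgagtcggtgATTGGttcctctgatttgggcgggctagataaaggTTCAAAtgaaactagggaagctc
Kif11 (chr19:37376232-37376381, plus strand): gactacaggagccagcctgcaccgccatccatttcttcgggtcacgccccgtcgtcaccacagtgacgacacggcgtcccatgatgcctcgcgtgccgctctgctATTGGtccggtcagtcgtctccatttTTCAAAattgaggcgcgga
Plk1 (chr7:122159285-122159434, plus strand): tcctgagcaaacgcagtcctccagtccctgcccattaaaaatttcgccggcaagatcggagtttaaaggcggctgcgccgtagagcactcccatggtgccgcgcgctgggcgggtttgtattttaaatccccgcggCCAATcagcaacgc
Cdk4 (chr10:127063385-127063534, plus strand): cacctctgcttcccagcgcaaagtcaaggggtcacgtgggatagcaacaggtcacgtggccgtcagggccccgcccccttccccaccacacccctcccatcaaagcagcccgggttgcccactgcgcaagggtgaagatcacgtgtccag

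In the Mcm6 stretch the word TTGGCGC and the word TTCGCGC read on the other strand overlap at 2 places. Cdk1 holds 1 E2F word, 2 copies of TTTGAA and 2 of CCAAT on the other strand. Counted from the RefSeq start, Top2a and Kif11 hold TTTGAA on the other strand, 23 and 19 bases before it. Plk1 holds CCAAT 14 bases before it, with its TTTGAA word 31 bases after the start and so not in the stretch. RefSeq and GENCODE starts can differ: the Kif11 stretch ends at 37376381, and the GENCODE gene begins at 37376403. Such distances hold for the RefSeq start only. The differences of these genes lay on both sides of 0: Mcm6, Cdk1, Top2a and Kif11 had log2 fold changes of -0.01, -0.01, 0.09 and 0.20, and Plk1 one of -0.27.

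The D cyclins and their kinases had the lowest median of the 3 groups. None of the 6 passed, and 5 lay below 0 and 1 above, where 53.2% of all genes tested lay below 0. The median was -0.12, which stayed below 0 in all 17 alternatives and was -0.05 within replicates 2 and 3. Their libraries overlapped between groups for all 6.

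Ccnd3, cyclin D3, lies on chromosome 17 from 47505051 to 47599691 and had the most negative value of the 44 with all 6 libraries. It read 252.9, 264.8 and 212.3 FPKM across controls, against 174.4, 227.4 and 183.7 across conditional knockouts. The lowest control lay under the highest conditional knockout, so the groups overlapped, though between libraries of different replicate number. Within each same-numbered pair the conditional knockout was the lower. The log2 fold change was -0.32 ± 0.15 (SE, adjusted p = 0.769), and -0.21 ± 0.16 within replicates 2 and 3. With the replicate number as a block the adjusted p was 0.38. Exons of Ccnd3 overlap those of Bysl on the other strand, which stood at 20.2 FPKM as a mean of 6 libraries. Ccnd2, cyclin D2, read 101.8, 76.53 and 71.67 FPKM across controls, against 74.72, 69.64 and 66.31 across conditional knockouts. Control replicate 1 stood apart at the top, and the value of -0.23 ± 0.15 (SE, adjusted p = 0.808) was -0.12 within replicates 2 and 3 and -0.08 without control replicate 1. Ccnd1, cyclin D1, was at 47.72 ± 5.99 and 45.22 ± 4.16 FPKM (SD, n = 3 each), a difference of -0.07 ± 0.13 (SE).

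Cdk4, the more abundant of the kinase partners of the D cyclins, lies on chromosome 10 from 127063534 to 127067920. It read 495.7, 550.5 and 493.2 FPKM across controls, against 403.7, 522.9 and 458.3 across conditional knockouts. Conditional knockout replicate 1 was the lowest and the groups overlapped, and the difference was -0.16 ± 0.13 on the log2 scale (SE, adjusted p = 0.823). It was -0.07 without conditional knockout replicate 1 and -0.25 without conditional knockout replicate 2. Exons of Cdk4 overlap those of Tspan31 on the other strand, at 56.0 FPKM. Cdk6, the sister kinase, was the least abundant of the 44 genes, at 2.193, 2.453 and 2.129 FPKM across controls, against 1.865, 2.654 and 2.057 across conditional knockouts. Cdk4 exceeded it by 197 to 232 times over the 6 libraries. Cdk2, the partner of the E and A cyclins, stood at 39.16 ± 1.8 and 40.36 ± 2.94 FPKM (SD, n = 3 each) and was alone among the 6 above 0, at 0.04 ± 0.10 (SE), a sign that turned in 2 of the 17 alternatives.

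The order Cdk4, Ccnd3, Ccnd2, Ccnd1, Cdk2, Cdk6 held in every library. Of its 5 neighbouring pairs, 4 had ranges that did not overlap, and Ccnd1 and Cdk2 were the pair that did. Ccnd3 exceeded Ccnd1 by 4.63 to 5.99 times in controls and 3.63 to 4.82 times in conditional knockouts, and Ccnd2 exceeded Ccnd1 by 1.62 to 1.86 and 1.48 to 1.64 times.

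Libraries of 1 genotype differed among themselves. For 12 of the 20 S phase genes control replicate 1 was the highest of the 6 libraries, where it was highest for 28.4% of all genes tested. Conditional knockout replicate 1 was the lowest library for 9 of the 18 mitotic genes and for 2853 of the 12988 genes tested. It was also the library with the lowest sum of heart muscle markers. Its sum of erythroid markers was the lowest over the 11 genes above 0 in all libraries, but not with Hbb-y and Hba-x. The part of these cell types in this was not tested. Set against each gene's own mean, the median S phase gene stood at 0.19 in control replicate 1 and -0.15 in control replicate 3 on the log2 scale. The median mitotic gene stood at 0.11 in conditional knockout replicate 2 and -0.16 in conditional knockout replicate 1. Conditional knockout replicate 2 was the highest library for 7 of the 18 mitotic genes, against 11.4% of all genes tested. It also held the highest sum of liver markers, whose part in this was not tested.

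**Figure D3:**
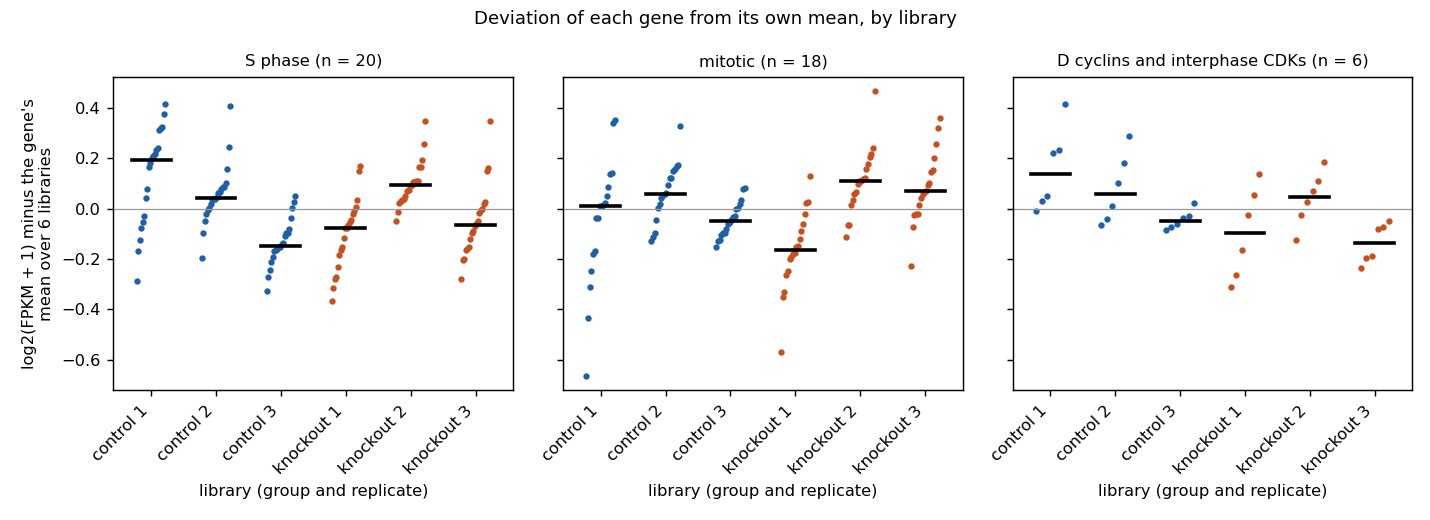
Each point is 1 gene's log2(FPKM + 1) minus its mean over the 6 libraries, by library and role, with controls in blue, conditional knockouts in orange and the black bar at the median. The S phase bar is highest in control replicate 1 and lowest in control replicate 3, and the mitotic bar lowest in conditional knockout replicate 1, so the libraries of a genotype differ among themselves.

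The replicate 1 libraries of both genotypes shared part of this pattern. Measured as replicate 1 minus the mean of replicates 2 and 3, Mki67 was at -0.87 in controls and -0.98 in conditional knockouts, Cenpe at -0.56 and -0.60, Cenpf at -0.41 and -0.59, and Ccne2 at -0.36 and -0.54. On the other side, Pcna was at 0.53 and 0.16, E2f1 at 0.29 and 0.28, Mcm5 at 0.53 and 0.14, and Ccnd2 at 0.45 and 0.14. Over the 44 genes the values of both genotypes correlated at r = 0.83 (Spearman's rho 0.75), a description across genes that share libraries. Replicate 1 was lower in both genotypes for 8 of 18 mitotic genes and higher in both for 2, for 5 and 5 of the 20 S phase genes, and for 30.9% and 29.6% of all genes tested.

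Transcript length moved with part of it. Over the 44 genes, length and the replicate 1 measure had a Spearman's rho of -0.19 in controls and -0.27 in conditional knockouts. Pearson's r, on log2 length, was -0.35 and -0.39. Mki67, Cenpe and Cenpf have longest annotated transcripts of 10061, 7910 and 11130 bases. Over all genes tested, the median of the same measure went from 0.13 under 2 kb to -0.23 at 8 kb and over in controls, and from 0.01 to -0.08 in conditional knockouts. Not every long transcript followed: Cdk6, with 11525 bases, was at -0.04 and -0.22, and Ccnd2, with 6330 bases, was above 0 in both genotypes, while the shorter Ccne1 and Ccne2 were below 0 in both. The part of length in these values was not tested.

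**Figure D4:**
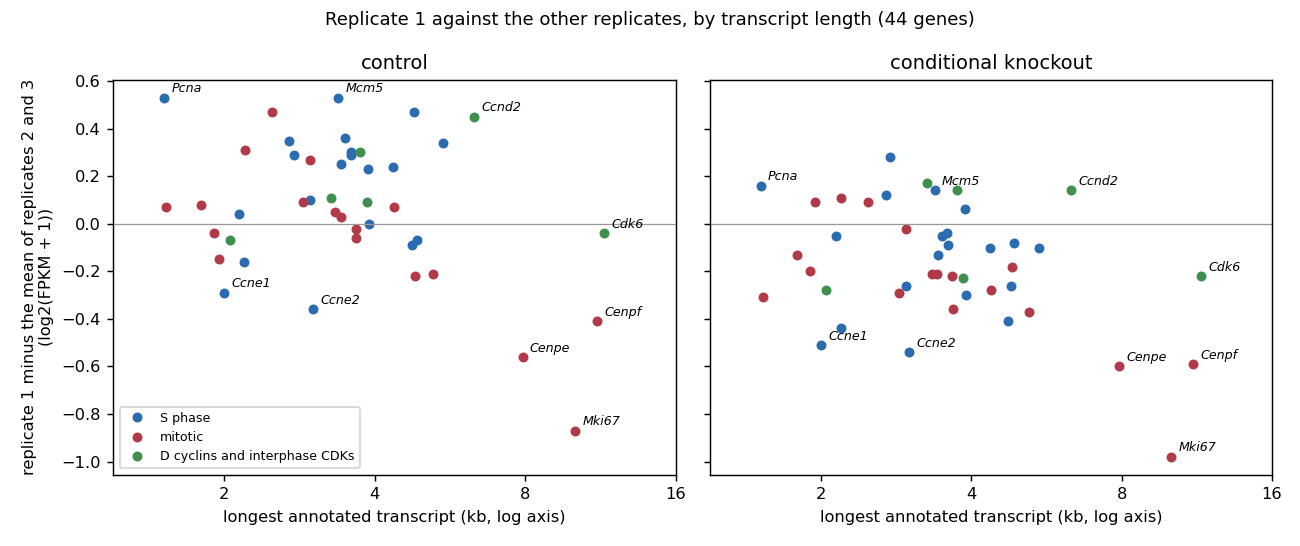
Replicate 1 minus the mean of replicates 2 and 3 (log2(FPKM + 1)) against the length of the longest annotated transcript (kb, log axis), for the 44 genes coloured by role, in controls and in conditional knockouts. Mki67 lies lowest in both panels at -0.87 and -0.98, with Cenpe and Cenpf next to it at long lengths, and Pcna and Mcm5 above 0 in both.

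Other genes of the same pathways, 97 listed by role, also had 0 calls. Of 35 further replication and nucleotide genes, 0 passed in either direction, with a median of 0.03. At an unadjusted p under 0.05 there were 3 (Cdc7, Orc4 and Orc3), against 6.68% of all genes tested. Orc4 had the largest change of this list, 0.36 ± 0.14 (SE, adjusted p = 0.742), and its groups overlapped. The origin recognition gene Orc3 (33.4 ± 1.02 and 39.1 ± 2.02 FPKM, SD, n = 3 each), the histone mRNA factor gene Slbp and the origin-firing kinase gene Cdc7 (12.7 ± 1.79 and 15.7 ± 0.531 FPKM) had separate groups with the conditional knockouts higher, 3 of 35 against 5.23% of all genes in that direction. Dut, the dUTPase gene and the most abundant of this list, was at 0.01 ± 0.16 (SE). Of 35 further mitotic genes measured, 0 passed (1 at an unadjusted p under 0.05, median 0.02). The securin gene Pttg1 was separate with the conditional knockouts lower (43.1 ± 2.63 and 35.4 ± 4.35 FPKM, adjusted p = 0.742) and the condensin gene Ncapg with them higher. That was 1 of 35 in each direction, against 8.17% of all genes tested lower and 5.23% higher. Ube2c, which works with the anaphase-promoting complex and was the most abundant, was at -0.23 ± 0.11 (SE, adjusted p = 0.773).

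Among 19 E2F, pocket protein and MuvB regulators, 0 passed (0 at an unadjusted p under 0.05, against 6.68% of all genes tested, median 0.07). Lin9 and Tfdp2 had separate groups with the conditional knockouts higher, 2 of 19 against 5.23% of all genes tested in that direction. Their log2 fold changes were 0.21 and 0.07 (adjusted p = 0.762 and 0.888). Tfdp1, the E2F partner and the most abundant, stood at 51.5 ± 0.305 and 53.7 ± 3.64 FPKM (SD, n = 3 each). Of 7 inhibitors of the cyclin-dependent kinases, 5 passed the filter on low values and 0 passed the test (1 at an unadjusted p under 0.05). All 5 lay below 0 (median -0.23), against 53.2% of all genes tested. Cdkn1c, the p57 inhibitor gene, which is imprinted, was the most abundant. Its controls stood at 823, 587 and 575 FPKM and its conditional knockouts at 408, 449 and 430 FPKM, groups that did not overlap. It was 1 of the 5 with the conditional knockouts separate and lower, against 8.17% of all genes tested. Its log2 fold change was -0.60 ± 0.16 (SE, adjusted p = 0.498), which missed the threshold.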

How the data were processed

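RNA from whole embryonic hearts was sequenced in 3 control and 3 conditional knockout libraries made with an Illumina Tru-seq kit, per the labels' protocols. The deposited FPKM values were made by the authors. The submitters' processing notes name TopHat2 2.0.9, Cufflinks 2.2.1, Cuffdiff and HTSeq, and the build mm10. The sources used here state neither the annotation release nor the strand setting, nor how reads matching several genes were treated. FPKM sums were 481334 to 582261 per library, and depth is unknown.

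The scale was log2(FPKM + 1), with 12988 genes tested whose mean was 1 FPKM or more, in limma 3.58.1 in R 4.3.3 (intensity trend, no block, Benjamini-Hochberg adjustment over all genes tested, threshold 0.05), after a test on simulated data. Residual degrees of freedom were 4. The adjustment, the trend and the moderated SE use all genes. FPKM values carry the SD of 3 libraries and log2 fold changes the SE.

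The members and lists were chosen with earlier results of these data known. The rule for naming took all 44 genes, Tek, and from each further list up to 4 genes past the threshold and the most abundant. Values by library were planned for genes with separate groups and the 3 most abundant per role, and other genes shown by library or named were chosen after their values were seen. Same-numbered libraries deviated together from their group means (r = 0.267, 0.109 and 0.439 for replicates 1 to 3 over 12805 genes). Pairs of different number had r from -0.391 to 0.0953, so the value for replicate 2 was close to theirs. The labels do not say what a number marks, so the replicate number was fitted as a block only as an alternative. Positions and lengths come from GENCODE M21 (GRCm38), which held all 44 identifiers, and promoter sequences from RefSeq (GRCm38.p6). Alternatives varied the pseudocount, filter, scaling, trend, block and libraries kept.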

Additional observations from a re-analysis of the deposited data

How the results depend on the processing

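Under 17 alternatives (16 planned, and rescaling without erythroid and mitochondrial genes, chosen after seeing the data), limma called 0 of the 44 genes in every one, with a smallest adjusted p of 0.368. These took pseudocounts of 0.1 and 0.5, no filter, a minimum of 5 FPKM (which leaves out Cdk6), quantile normalization, median centring, rescaling without erythroid genes, the replicate block, no intensity trend, replicates 2 and 3 only, and leaving out each library. At an unadjusted p under 0.05 the most found was 3 of the 44, with the block, where 11.9% of all genes had such a p, and with rescaling without erythroid genes, where 8.42% did. No gene whose change exceeded its SE changed sign. The median S phase value lay between -0.09 and 0.08, the mitotic median between -0.01 and 0.12, and the median of D cyclins and kinases between -0.18 and -0.05. Over all genes, 23 calls became 14 with no filter, and 10 to 18 without any 1 library: 10 and 15 without the second and the third control library, 13 and 11 without the first and the third conditional knockout library.

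With the replicate block, Plk1 kept its value of -0.27 with an adjusted p of 0.368, Ccnd3 had 0.38 and Kif11 0.407, and these 3 of the 44 had an unadjusted p under 0.05, against 11.9% of all genes. The SE of Mki67 went from 0.34 to 0.08, with an adjusted p of 0.465. The block changed no call among the 44 genes, and 17 genes were called over the table.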
